A study of Mus musculus with 1 sample.

Results

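The transcription factor gene *Trp53*, which encodes p53, was examined with 2 genes whose products inhibit p53 and 7 that p53 is known to activate. Levels are those in bone marrow (BM) cells of Ctrl mice, labelled as sorted for c-kit. The library also held abundant transcripts used as markers of mature blood cells, as given below. The 10 genes were chosen by name (*Trp53*, *Mdm2*, *Mdm4*, *Cdkn1a*, *Ccng1*, *Bax*, *Bbc3*, *Pmaip1*, *Phlda3* and *Sesn2*) and not by a rule on their values. Earlier results of these data were known when they were chosen. All 10 were found among the 54532 Ensembl genes listed. The study compared the RNA of such cells between Ctrl mice and mice deficient in *Gadd45g* that had developed myeloproliferative neoplasm (MPN). The data analysed here are 1 library, that of the Ctrl group, from mice of the C57BL/6 strain with the genotype wild type. Its cells are labelled as FACS-sorted for c-kit and as negative for lineage markers and Sca-1, whereas the methods of the study name only c-kit for the RNA sequencing, and no treatment is named. The number and age of the mice, and whether their cells were pooled, are not given in the sources used here. The library of the MPN group was not analysed here. Therefore every value below is a level in Ctrl cells, and no fold change between groups, no spread between mice and no test is given.

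GADD45 proteins are stress sensors, and p53 is the best known coordinator of the response to DNA damage and other stress. In unstressed cells MDM2, a ubiquitin ligase, keeps the p53 protein low, and its relative MDM4 binds p53 and holds back its activity. Because stress stabilises the protein, p53 activity is set largely after the mRNA has been made. Active p53 induces genes that stop the cell cycle, start mitochondrial cell death or adjust metabolism, and it also induces *Mdm2*, which closes a feedback loop. In bone marrow this pathway is known for removing damaged stem and progenitor cells.

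The promoters were searched for the DNA that p53 binds, because this is what the target genes are known to share. The targets were chosen as genes that p53 is known to activate, so a match among them is no independent evidence. The p53 response element consists of 2 half-sites, each with 3 purines, a C, 2 bases that are A or T, a G and 3 pyrimidines. The half-site is its own reverse complement, so that a single search covers both strands. A match was taken as 2 adjoining half-sites with the C and the G of each intact and at most 2 mismatches elsewhere. The RefSeq promoter windows of GRCm38.p6 run from 250 bases before a start site to 50 bases after it. There were 13 such windows for 9 of the 10 genes, and none for *Pmaip1*. A match was present in a window of *Cdkn1a* and of *Ccng1*, that is in 2 of the 9 genes, against 106 of all 27025 genes with a window (0.392%). By window, 2 of the 13 held a match, against 107 of all 32851 (0.326%). Both matches are printed with the C and the G of each half-site in capitals. The site of *Cdkn1a* lies on the forward strand at chr17:29090928-29090947 and begins 51 bases before the upstream of its 2 start sites. The site of *Ccng1* lies at chr11:40755462-40755481, is read on the reverse strand, and begins 195 bases before the start. The third sequence, of *Bbc3*, has 3 mismatches and was found only when 3 were allowed. It lies at chr7:16309486-16309505 on the forward strand, 97 bases before a start site. A match of *Trp53*, also with 3 mismatches, lies at chr11:69580284-69580303 on the forward strand, 75 bases before the start, and is not printed. In 8 of the 13 windows the last 50 bases lay in an annotated transcript of the gene. This was not so for the *Bbc3* window with the match, so its start site lacks that backing. It was so for the *Trp53* window.
Cdkn1a: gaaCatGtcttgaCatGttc
Ccng1: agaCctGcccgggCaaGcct
Bbc3: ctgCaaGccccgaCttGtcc

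The sites of *Cdkn1a* and *Ccng1* each differ from the consensus at 1 position. With 3 mismatches allowed, 4 of the 9 genes had a match (*Bbc3* and *Trp53* in addition), against 1.63% of all genes with a window. These are matches of letters only. No binding of p53 was measured in these cells, and a gene without a match may have its site outside the window. The windows of the 9 genes had a median GC content of 64.7%, from 43% to 78%, and that of all windows was 52.7%. The 2 windows of *Cdkn1a* differed in CpG content. The ratio of observed to expected CpG was 0.0892 in the window that holds the site and 0.786 in the downstream one, and the median over all windows was 0.384.

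In the Ctrl library 9 of the 10 genes reached 1 FPKM, the level at which a gene was called detected, and 6 reached 10 FPKM. Of the 21995 protein-coding genes listed, 46.8% reached 1 FPKM and 21.2% reached 10 FPKM. FPKM is the number of fragments of a gene scaled to its exon length and to the size of the library, and it can be compared between genes of 1 library. The median of the 10 genes was 11.4 FPKM, against 0.5997 FPKM over all protein-coding genes and 8.66 FPKM over those at 1 FPKM or more. *Ccng1* was the highest of the set, at 22.6 FPKM, and *Phlda3* was the lowest, at 0.935 FPKM, a 24.2-fold range (95% interval of the ratio, 16.1 to 38.3). The intervals here and below come from whole fragments recovered from the FPKM values. They cover counting error only, since fragments copied by PCR are not independent and 1 library holds no difference between mice. In bulk RNA, fewer cells of a type and less RNA per cell cannot be told apart, so these levels are averages over whatever cells the sort retained.

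**Figure D1:**
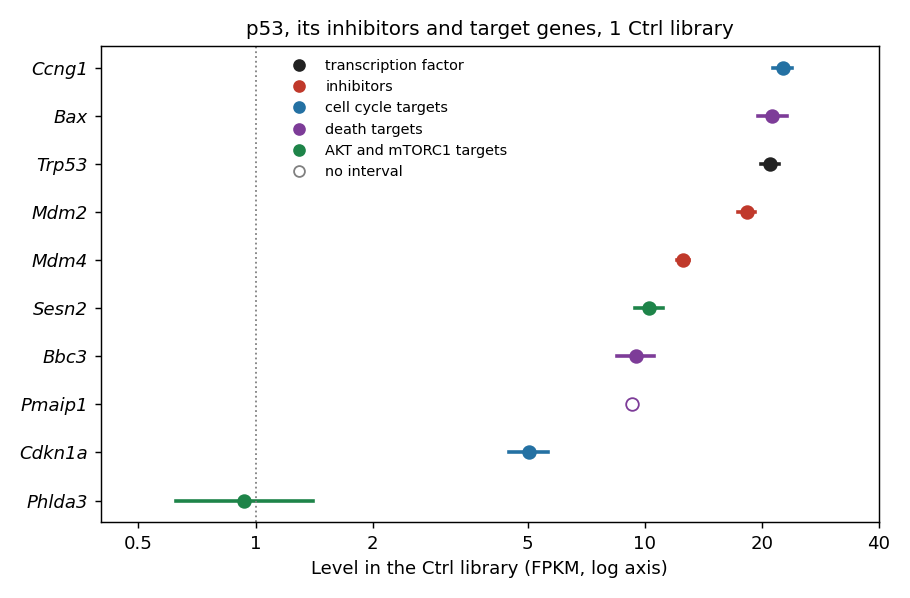
Levels of the 10 genes in the Ctrl library, in FPKM on a log axis, coloured by role. Points are deposited values, bars are 95% Wilson intervals of counting error, the open point (*Pmaip1*) has no interval, and the dotted line marks 1 FPKM. Only the interval of *Phlda3* crosses that line, and *Ccng1*, *Bax* and *Trp53* lie together at the top between 20.96 and 22.6 FPKM.

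*Trp53* itself (ENSMUSG00000059552) lies at chr11:69580359-69591873, forward strand, in GRCm38, the build also called mm10. It was present at 20.96 FPKM (95% Wilson interval, 19.9 to 22.1), for which 1338 fragments were recovered. This level was above that of 88.4% of the protein-coding genes, with 2544 of them higher. *Trp53* was the third of the 10 genes, yet the first 3 were not separated. The ratio of *Ccng1* to *Trp53* was 1.08 (95% interval, 0.999 to 1.17) and that of *Bax* to *Trp53* was 1.01 (0.916 to 1.12). The mRNA level gives no measure of the amount or activity of the p53 protein.

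Both inhibitor genes were expressed below *Trp53*. *Mdm2* (ENSMUSG00000020184; chr10:117688875-117710758, reverse strand) reached 18.3 FPKM (interval, 17.4 to 19.2) with 1466 fragments. *Mdm4* (ENSMUSG00000054387; chr1:132959484-133030561, reverse strand) reached 12.6 FPKM (interval, 12.1 to 13.02), although its 2933 fragments were the most of the set. The level of *Mdm2* was 1.46 times that of *Mdm4* (interval, 1.37 to 1.55), and it was 0.872 times that of *Trp53* (0.809 to 0.940). *Mdm2* is a p53 target as well as an inhibitor, whereas *Mdm4* is known chiefly as an inhibitor. These ratios depend strongly on the length assigned to each gene, which is described below.

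Of the targets that act on the cell cycle, *Ccng1* was high and *Cdkn1a* was low. *Ccng1* (ENSMUSG00000020326), which encodes cyclin G1, lies at chr11:40748552-40755311, reverse strand, and its 1254 fragments gave 22.6 FPKM (interval, 21.4 to 23.9). *Cdkn1a* (ENSMUSG00000023067), which encodes the CDK inhibitor p21, lies at chr17:29090976-29100727, forward strand, and its 282 fragments gave 5.03 FPKM (interval, 4.47 to 5.65). *Ccng1* was therefore 4.50 times *Cdkn1a* (interval, 3.95 to 5.14), or 2.63 times (2.31 to 3.01) when fragments were divided by the longest protein-coding transcript. These are the 2 genes whose promoter windows held a match to the p53 consensus. *Cdkn1a* was above 68.6% of all protein-coding genes, but above no more than 32.8% of those at 1 FPKM or more.

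The death targets act at the outer membrane of mitochondria, where BAX forms pores and the BH3-only proteins PUMA and NOXA promote this. *Bax* (ENSMUSG00000003873; chr7:45461697-45466898, reverse strand) was at 21.3 FPKM (interval, 19.5 to 23.2; 529 fragments). *Bbc3* (ENSMUSG00000002083), the gene of PUMA, on the same chromosome at chr7:16308393-16318205, forward strand, was at 9.49 FPKM (interval, 8.499 to 10.6; 318 fragments). *Bax* was 2.24 times *Bbc3* (interval, 1.947 to 2.58). *Pmaip1* (ENSMUSG00000024521; chr18:66458533-66465565, forward strand), the gene of NOXA, had 9.27 FPKM, close to *Bbc3*. For *Pmaip1* the product of FPKM and annotated length was not a whole number of fragments (399.6 steps), as for many genes of its chromosome, so it has no interval and its ratio to *Bbc3* cannot be judged.

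The last pair of targets acts on growth signals. *Phlda3* encodes a small pleckstrin-homology protein that competes with AKT for membrane lipids, and *Sesn2* encodes sestrin 2, which restrains mTORC1 under stress. *Sesn2* (ENSMUSG00000028893; chr4:132492032-132510501, reverse strand) was at 10.2 FPKM (interval, 9.43 to 11.1; 562 fragments). *Phlda3* (ENSMUSG00000041801; chr1:135766119-135769136, forward strand) had 0.935 FPKM from no more than 23 fragments. Its interval of 0.623 to 1.40 FPKM contains 1 FPKM, so that whether *Phlda3* belongs with the detected genes was not resolved at this depth. *Cdkn1a*, the next gene above it, was 5.38 times as high (interval, 3.51 to 8.63).

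Placed in order of level, the 10 genes were *Ccng1*, *Bax*, *Trp53*, *Mdm2*, *Mdm4*, *Sesn2*, *Bbc3*, *Pmaip1*, *Cdkn1a* and *Phlda3*. Of the 9 pairs of neighbours in this order, 4 had a ratio whose interval left 1. These were *Trp53* over *Mdm2* (1.15, interval 1.06 to 1.24), *Mdm2* over *Mdm4*, *Mdm4* over *Sesn2* (1.23, interval 1.12 to 1.34) and *Cdkn1a* over *Phlda3*. The other 3 with an interval were not separated by counting error, and the 2 pairs with *Pmaip1* have none. With 1 library, no gene can be named whose pattern across samples resembles that of *Trp53*.

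**Figure D2:**
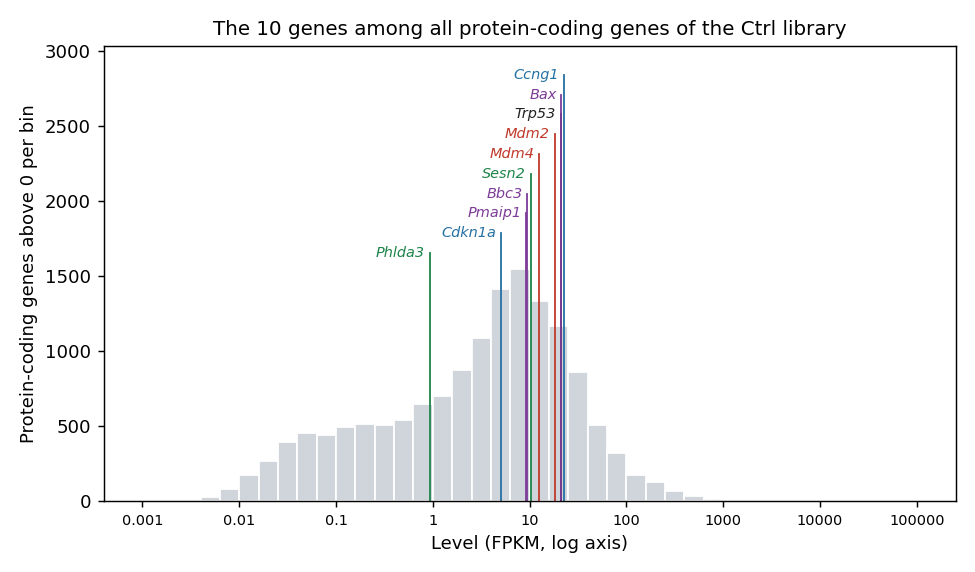
Levels of all protein-coding genes above 0 FPKM in the Ctrl library (grey bars, number of genes per bin of 0.2 in log10 FPKM), with a line for each of the 10 genes. *Phlda3* lies near 1 FPKM, *Cdkn1a* at 5.03 FPKM, and the other 8 lie between 9.27 and 22.6 FPKM, above the median of the detected protein-coding genes.

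The order depended on the gene length by which fragments are divided. The deposited values fit a length that counts every base in any annotated exon, and for *Trp53* this is 4045 bases, whereas its longest protein-coding transcript has 1867. When the recovered fragments of the 9 genes that have them were divided by the longest protein-coding transcript, *Trp53* went from the third place to the first, at 45.4 on the same scale (interval, 43.0 to 47.9). It was then 2.01 times *Ccng1* (1.86 to 2.17), the gene that had been highest. *Mdm4*, with 14798 exon bases over 14 transcripts and 7105 bases in the longest coding one, went to 26.2, and *Mdm2* went to 29.5. The ratio of *Mdm2* to *Mdm4* was then 1.13 (interval, 1.06 to 1.20). *Mdm2* and *Mdm4* stayed below *Trp53*, at 0.650 times (0.604 to 0.701) and 0.576 times (0.540 to 0.615). *Ccng1* and *Sesn2*, whose longest coding transcript covers all their exon bases, did not move. *Phlda3* was lowest and *Cdkn1a* next lowest under either length, with *Cdkn1a* at 8.59.

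**Figure D3:**
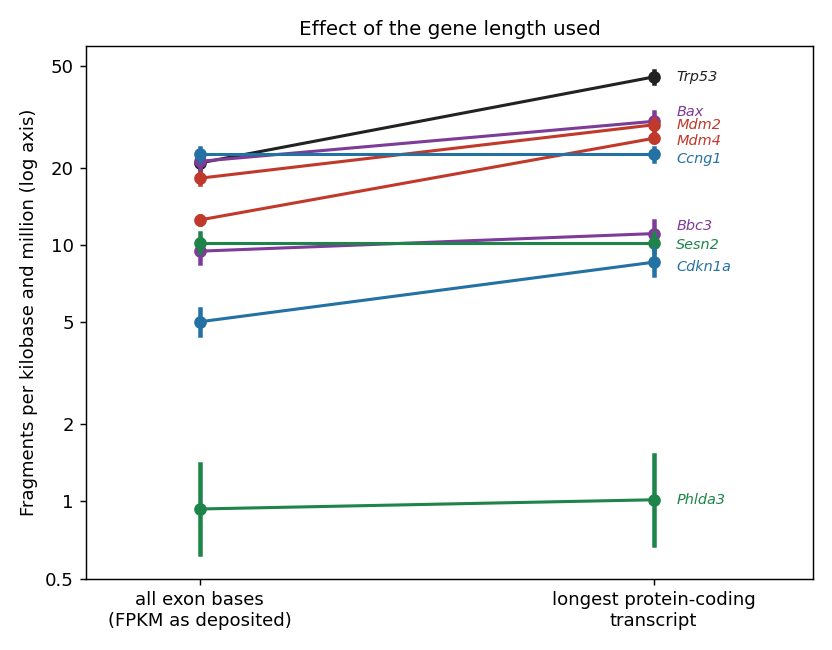
Effect of the length used, on a log axis, for the 9 genes with recovered fragments. Left, FPKM as deposited, and right, the same fragments divided by the longest protein-coding transcript, with 95% Wilson intervals as thick bars. *Trp53* moved from 20.96 to 45.4 and *Mdm4* from 12.6 to 26.2, while *Ccng1* stayed at 22.6.

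Sequence shared with other gene models, at the same locus or elsewhere, touched some of the 10 genes more than others. Of the stretches of 50 bases in their transcripts, none of *Ccng1*, *Bbc3*, *Pmaip1*, *Phlda3* or *Sesn2* occurred in a transcript of another gene. The share was 1.32% for *Mdm2*, 3.95% for *Trp53*, 7.31% for *Mdm4*, 8.49% for *Cdkn1a* and 8.51% for *Bax*. For *Trp53* and *Mdm4* the gene that shared most was a processed pseudogene. *Trp53-ps* (chr17:54419680-54420841, forward strand) was listed at 0.5998 FPKM from 11 fragments, and *Mdm4-ps* (chrX:128261411-128267924, forward strand) at 0.00973 FPKM from 1 fragment. For *Cdkn1a* and *Bax* it was a gene that overlaps them at their own locus, which held 225 of the 301 shared stretches of *Cdkn1a* and all 145 of *Bax*. The exons of *Cdkn1a* share 273 bases with *AC167363.2*, a gene model still to be tested by experiment, on the opposite strand, at 0.121 FPKM. Those of *Bax* share 192 bases with *Gm45808* on the same strand, which is listed at 0. Whether the counting used strand, or dropped fragments that fit more than 1 gene, is not given in the sources used here. Divided by exon bases that no other gene covers, the ratio of *Bax* to *Bbc3* was 2.55.

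Each target was next set beside its relatives and partners. Among the CDK inhibitors *Cdkn1b*, the gene of p27, had 53.1 FPKM (interval, 51.5 to 54.8), 10.6 times *Cdkn1a* (9.36 to 12.0), or 6.18 times (5.48 to 7.01) per longest protein-coding transcript. *Cdkn1c* had 0.621 FPKM from 20 fragments. Of the G-type cyclins, *Ccng1* was 1.30 times *Ccng2* (interval, 1.21 to 1.41), at 17.3 FPKM, but this turned to 0.672 times (0.623 to 0.724) per longest protein-coding transcript. *Sesn1* had 16.8 FPKM, 1.64 times *Sesn2* (1.48 to 1.82), and *Sesn3* had 2.37 FPKM. *Phlda1* had 3.76 FPKM, 4.03 times *Phlda3* (2.57 to 6.57), and *Phlda2* had 0.339 FPKM from 6 fragments. *Cdkn1a*, *Sesn2* and *Phlda3* were thus each below 1 relative and above another, although the intervals of *Phlda3* and *Phlda2* overlap, and the place of *Ccng1* depended on the length.

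In the BCL2 family, the survival genes *Mcl1* and *Bcl2l1* were above every death gene examined. *Mcl1* had 248 FPKM (interval, 244 to 252), which was 11.7 times *Bax* (10.7 to 12.8) and 26.2 times *Bbc3* (23.4 to 29.3). Per longest protein-coding transcript these ratios were 8.15 (7.47 to 8.90) and 22.3 (19.99 to 25.1). *Bcl2l1*, the gene of BCL-XL, had 65.0 FPKM, 6.85 times *Bbc3* (6.12 to 7.70), or 10.5 times (9.33 to 11.7) per longest protein-coding transcript, whereas *Bcl2* had 3.12 FPKM (2.85 to 3.42). *Bak1*, the other pore former, had 35.3 FPKM, 1.66 times *Bax* (1.501 to 1.84), or 1.17 times (1.06 to 1.295) per longest protein-coding transcript. The BH3-only genes *Bid* and *Bcl2l11*, the gene of BIM, had 19.3 and 4.51 FPKM, on either side of *Bbc3* and *Pmaip1*. Of the GADD45 family, *Gadd45g*, the gene altered in the study, had 19.3 FPKM (17.4 to 21.4) and *Gadd45b* had 15.6 FPKM (14.2 to 17.3), while *Gadd45a*, itself a p53 target, was higher at 78.8 FPKM.

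**Figure D4:**
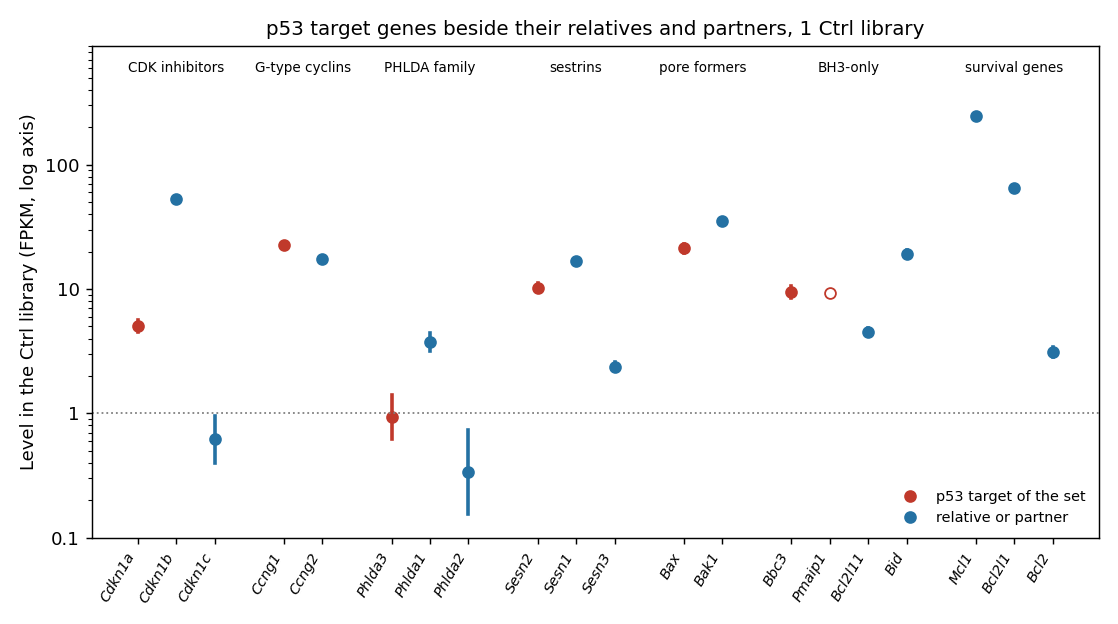
p53 target genes (red) beside relatives and partners (blue) in the Ctrl library, in FPKM on a log axis, grouped by family. Bars are 95% Wilson intervals of counting error, the open point (*Pmaip1*) has no interval, and the dotted line marks 1 FPKM. *Cdkn1b* lies above *Cdkn1a*, and *Mcl1*, at 248 FPKM, lies highest.

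Outside the 10 genes, 1 FPKM was reached by 49 of 61 further genes of the p53 pathway, and 22 of them reached 10 FPKM. Over all protein-coding genes these shares were 46.8% and 21.2%, and the lists were chosen with earlier results known. The median of the 61 was 6.36 FPKM. Of the 13 upstream activators, 11 reached 1 FPKM. *Rpl5* and *Rpl11*, whose ribosomal proteins bind MDM2 when ribosome assembly fails, were highest at 199 and 185 FPKM. *Cdkn2a*, the locus of ARF, which inhibits MDM2, was lowest at 0.324 FPKM from 6 fragments. The damage kinase genes *Atm* and *Atr* had 2.29 and 0.855 FPKM, and the checkpoint kinase genes *Chek2* and *Chek1* had 12.96 and 5.21 FPKM. All 6 further restraints of p53 were detected, from *Trim24* at 4.73 FPKM to *Rchy1* at 16.5 FPKM and *Ppm1d*, the gene of the phosphatase WIP1, at 18.1 FPKM. Of the 6 relatives and binding proteins of p53, 3 were detected, with *Ppp1r13b* (6.35 FPKM) and *Trp53bp2* (4.96 FPKM) highest. The p53 homologues were near or at 0, with *Trp63* listed at 0 and *Trp73* at 0.0229 FPKM from 2 fragments.

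Among 36 further targets of p53, detection was reached by 29, against 46.8% of all protein-coding genes, and the median was 7.03 FPKM. Growth arrest targets were led by the antiproliferative gene *Btg2* at 178 FPKM and by *Gadd45a* at 78.8 FPKM. Both were above all of the 10 genes, and 7 of the 8 on this list were detected, the exception being *Rprm*, listed at 0. Of 9 further cell death targets 8 were detected, with *Trp53inp1* at 26.3 FPKM and *Apaf1*, the scaffold of the apoptosome, at 15.4 FPKM highest and the death receptor gene *Tnfrsf10b* lowest at 0.128 FPKM. All 5 DNA repair targets were detected, from *Polk* at 1.30 FPKM to *Polh* at 7.70 FPKM and *Xpc* at 11.7 FPKM. Of the 9 metabolism and stress targets 7 were detected, with the glutathione peroxidase gene *Gpx1* at 1722 FPKM and the AMPK subunit gene *Prkab1* at 44.3 FPKM highest. *Sco2* was listed at 0, and 8.22% of its exon bases are free of other genes. Whether this overlap bears on the 0 was not tested, and the 0 is not read as absence. Of the 5 other targets 2 were detected, *Ephx1* at 8.09 FPKM and *Dcxr* at 5.43 FPKM, and *Eda2r* was lowest at 0.0538 FPKM.

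**Figure D5:**
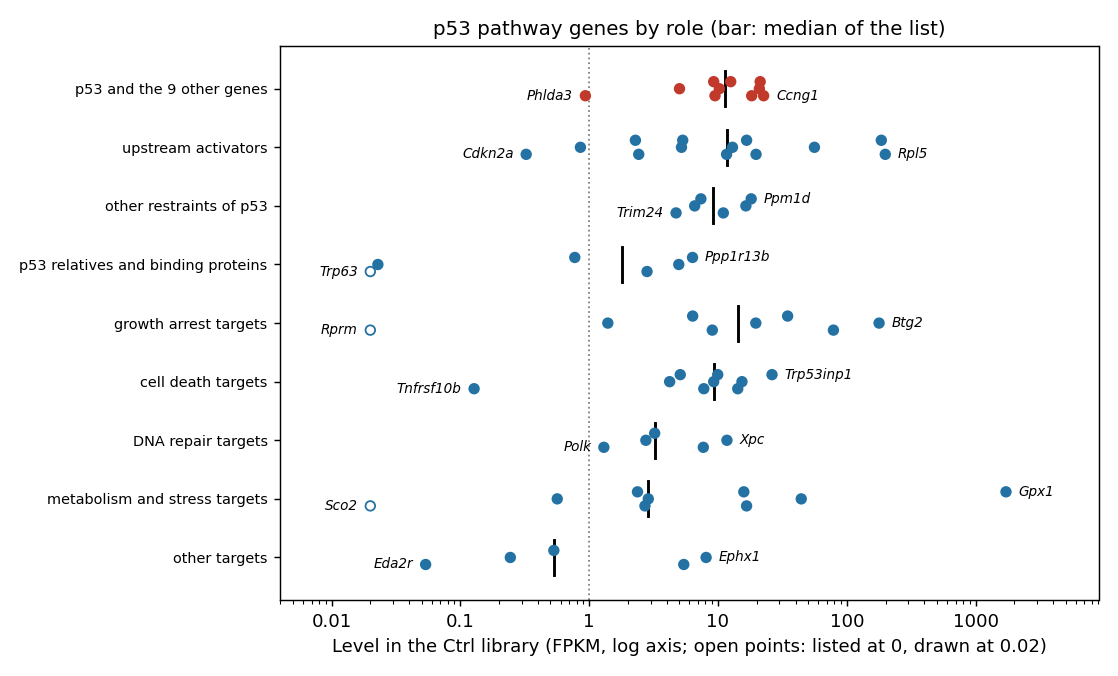
p53 pathway genes by role in the Ctrl library, in FPKM on a log axis. Each point is a gene, the black bar is the median of its list, open points are genes listed at 0, and the dotted line marks 1 FPKM. The highest and lowest gene of each list are named, from *Gpx1* at 1722 FPKM to the 3 genes listed at 0.

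Transcripts used as markers of mature blood cells were present in the library beside those of progenitors. A sort negative for lineage markers, as labelled, would remove most mature cells. Whether the transcripts came from mature cells or from their precursors was not tested. *Kit* had 7.17 FPKM, below 8 of the 10 genes, and all 4 progenitor markers were detected, from 5.22 to 16.5 FPKM. The 7 mature neutrophil markers ran from 480.1 to 26677 FPKM and made up 12.4% of the summed FPKM. The 4 red cell markers ran from 1037 to 25466 FPKM and made up 9.79%. Markers of B cells (47.2 to 2005 FPKM), macrophages (29.9 to 51.5 FPKM) and T cells (2.62 to 8.55 FPKM) were all detected, and no marker searched was at 0. Which of these cells the transcripts of *Trp53* and its targets came from was not tested.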

How the data were processed

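Sequencing was by Illumina HiSeq, from RNA of the sorted cells. The authors deposited FPKM values, 1 per gene, for the 1 Ctrl library analysed here. The submitters' processing notes list HISAT2 2.0.5, featureCounts 1.5.0-p3 and mm10, without parameters. Gene models came from GENCODE M21 (GRCm38), which held 54495 of the 54532 identifiers. FPKM times exon length gave whole multiples of 1 step, within 0.01, for 96.4% of genes above 0 (64.6% on chromosomes 17, 18 and 19, 99.9% elsewhere, cause not tested). The multiples were taken as fragments, and the step implies a scaling total of 15783891. Fragments on the genes with whole multiples sum to 15899824, above that total, so it is not the full library size. The cause was not tested. Multiples taken as fragments gave 8705 fragments on 9 of the 10 genes and, with the scaling total, the 95% Wilson intervals. Ratios have exact conditional binomial intervals. The arithmetic of the recovery was checked on simulated fragment counts. Such a check cannot show that 1 step is 1 fragment in the data. The 10 genes and the pathway, relative and marker lists were chosen with earlier results of these data known, so no list is independent evidence. Named are the 10 genes, of each pathway list the 2 highest, the lowest and those at 0, all relatives, overlapping genes and pseudogenes, and *Kit*. *Atm*, *Atr*, *Chek1*, *Chek2* and *Trp73* lie outside this rule and were chosen after their values were seen. The pairs set side by side, other than *Mdm2* with *Mdm4* and *Bax* with *Bbc3*, were likewise chosen after their values were seen. Promoter windows are from RefSeq. Alternatives changed the scaling total, unit, gene length, detection minimum and motif settings. Values were computed with pandas 2.3.3, scipy 1.17.1 and numpy 2.4.6 under Python 3.11.15 and drawn with matplotlib 3.10.9.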

Additional observations from a re-analysis of the deposited data

How the results depend on the processing

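No paired analysis was possible because a single library has no replicate to pair. The median of the 10 genes, 11.4 FPKM, was 12.4 without the 10 most abundant genes in the total and 26.6 in TPM, both by a factor common to all genes. It was 12.6 without *Pmaip1* (chosen after seeing the data), and likewise 12.6 per exon base that no other gene covers, 22.6 per longest protein-coding transcript and 562 fragments without division by length, the last 3 over the 9 genes with fragments. The range from highest to lowest, 24.2-fold, was 44.7-fold per longest protein-coding transcript and 128-fold without division by length. *Mdm2* over *Mdm4*, 1.46, was 1.13 per longest protein-coding transcript and turned to 0.4998 without division by length. *Bax* over *Bbc3*, 2.24, was 2.74 and 1.66 under these. Of the other 12 ratios, whose alternatives were chosen after seeing the data, those that turned without division by length were *Mdm2* over *Trp53* (1.10), *Mdm4* over *Trp53* (2.19), *Ccng1* over *Ccng2* (0.839) and *Sesn2* over *Sesn3* (0.983). Others moved by over 1.5 times without turning there, to 25.3 for *Mcl1* over *Bax*, 42.1 for *Mcl1* over *Bbc3*, 14.8 for *Bcl2l1* over *Bbc3* and 2.54 for *Bak1* over *Bax*. Per longest protein-coding transcript only *Ccng1* over *Ccng2* turned (0.672), and *Sesn2* over *Sesn3* went from 4.32 to 2.58. The 9 genes detected were 10 at 0.1 FPKM or at 10 fragments and 6 at 10 FPKM. The 49 pathway genes detected were 56, 55 and 22 under these. Genes with a p53 site went from 2 to 4 with 3 mismatches and to 3, with *Bax* added, when up to 13 bases could separate the half-sites, while the share over all genes went from 0.392% to 1.63% and 4.71%. Depth limits *Phlda3*, with 23 fragments, most.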
